A study of Homo sapiens with 20 samples.

Results

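DAZL and 7 other genes that are normally expressed in germ cells (BOLL, TEX101, TEX14, BRDT, LDHC, HSPA2 and TKTL1) were followed through RNA sequencing of 5 gastric cancer cell lines. These 8 genes were chosen by name from the 60232 genes of the expression table, several of them because they had been seen to be strongly raised by drug treatment in every line. All 8 were among the 27350 genes whose values summed to more than 10 over the libraries and which were tested. Since that choice used the comparison of treated with untreated cells, the response of the 8 genes to the drug is given as a description, without a test. Tests are given for the differences between lines. The choice did not ask for such differences, but it looked at the response in every line. These tests may therefore not be independent of it.

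Cells were treated with decitabine (DCB) or with its solvent DMSO as the control for 72 h. DCB resembles cytidine, enters newly made DNA and there captures the enzymes that methylate it. YCCEL1 and SNU719 carry Epstein-Barr virus and belong to the CpG island methylator phenotype with dense promoter methylation (EBV+, CIMP+), AGS is EBV- and CIMP+, and SNU16 and HGC27 are EBV- and CIMP-. Each line and treatment had 2 libraries, 20 in all, and the genotype of every line is given as wild type. EBV and CIMP status belong to a line, and each status is seen here in only 2 or 3 lines, so it cannot be told apart from other differences between those lines. Where the sample labels name HGC27 the study's methods name MKN74, and the labels were followed.

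Germ-cell genes are kept silent in most somatic tissues, and for many of them methylation of a CpG-rich promoter is a known part of that silencing. Their products serve steps that only germ cells undergo, such as meiosis, the reshaping of the sperm nucleus and the energy supply of sperm. Some of them have a close relative that is used by every cell, and these somatic relatives were measured beside them.

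Values are normalized counts as deposited. The commonest low value lay between 0.754 and 1.208 per library, so values near 1 are close to the smallest amount that could be seen. Library totals ran from 7764408 to 9321014 normalized counts, 20851 to 27026 genes were above 0, and correlations across genes within a group were 0.969 to 0.980. No source states that the 2 libraries of a group came from separate cultures, so the p-values measure only the spread between these libraries. The epithelial markers EPCAM and KRT8 averaged 4612 or more normalized counts in all groups of 4 lines, but in HGC27 EPCAM averaged 30.5 with DCB and 28.3 with DMSO, while the fibroblast gene COL3A1 averaged 32705 with DCB and 34099 with DMSO. CDH1, another epithelial marker, averaged 2780 or more in the groups of YCCEL1, SNU719 and SNU16. In AGS it averaged 131 with DCB and 85.8 with DMSO, and in HGC27 44.1 and 10.6. The epithelial markers were thus low in HGC27, and CDH1 was low in AGS as well.

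The starts of the genes are shown first, because DCB blocks the enzymes that methylate CG dinucleotides and the genes differ in how many they hold. RefSeq windows on GRCh38.p14, from 250 bases before to 50 bases after a start, were found for 7 of the 8 genes (12 windows). The following 5 windows belong to the genes on which the results turn, with every CG in capitals and read 5′ to 3′ along the gene. The first, of DAZL, lies at chr3:16605374-16605673 on the minus strand. The 2 of TEX101 lie on the plus strand, at chr19:43414640-43414939 inside the gene's span in the table and at chr19:43388361-43388660 before it. The window of TKTL1 lies at chrX:154295545-154295844 and that of HSPA2 at chr14:64540491-64540790, both on the plus strand.
DAZL: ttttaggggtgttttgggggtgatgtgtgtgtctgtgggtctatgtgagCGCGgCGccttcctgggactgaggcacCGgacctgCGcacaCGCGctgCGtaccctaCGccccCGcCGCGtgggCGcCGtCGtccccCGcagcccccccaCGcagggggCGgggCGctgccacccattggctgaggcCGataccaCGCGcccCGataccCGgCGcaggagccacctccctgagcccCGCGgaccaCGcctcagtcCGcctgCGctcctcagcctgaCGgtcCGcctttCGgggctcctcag
TEX101, inner start: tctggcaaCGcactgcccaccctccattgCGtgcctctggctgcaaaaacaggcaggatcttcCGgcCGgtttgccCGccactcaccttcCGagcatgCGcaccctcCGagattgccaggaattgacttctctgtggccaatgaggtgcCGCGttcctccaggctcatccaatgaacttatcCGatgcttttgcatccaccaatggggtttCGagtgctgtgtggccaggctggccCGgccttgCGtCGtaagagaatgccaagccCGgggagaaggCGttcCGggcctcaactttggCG
TEX101, outer start: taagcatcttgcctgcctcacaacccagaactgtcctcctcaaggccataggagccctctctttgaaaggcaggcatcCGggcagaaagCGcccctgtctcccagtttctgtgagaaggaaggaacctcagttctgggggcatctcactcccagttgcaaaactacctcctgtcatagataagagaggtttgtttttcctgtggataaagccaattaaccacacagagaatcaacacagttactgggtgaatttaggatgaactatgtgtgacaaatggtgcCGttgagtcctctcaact
TKTL1: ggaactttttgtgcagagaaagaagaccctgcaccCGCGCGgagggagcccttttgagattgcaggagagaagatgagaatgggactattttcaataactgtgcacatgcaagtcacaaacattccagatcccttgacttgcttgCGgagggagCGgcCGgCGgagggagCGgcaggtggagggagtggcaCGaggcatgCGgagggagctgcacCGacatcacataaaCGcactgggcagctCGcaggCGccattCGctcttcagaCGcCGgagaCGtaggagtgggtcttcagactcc
HSPA2: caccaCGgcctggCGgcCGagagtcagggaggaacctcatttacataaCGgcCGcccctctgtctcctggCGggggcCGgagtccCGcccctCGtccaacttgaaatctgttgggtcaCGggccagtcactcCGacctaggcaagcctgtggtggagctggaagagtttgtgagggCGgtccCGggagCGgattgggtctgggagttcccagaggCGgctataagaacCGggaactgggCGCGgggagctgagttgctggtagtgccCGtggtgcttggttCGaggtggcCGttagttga

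The DAZL window holds 33 CG dinucleotides, and 82.8% of the 35116 windows of all genes held fewer. The median window held 14. The other DAZL window holds 29, the BOLL windows 29 and 32, the LDHC window 25, the BRDT windows 21 and 23, and the HSPA2 window 21. TEX101 and TKTL1 each have 1 window above the median and 1 below it, with 19 and 3 CG in TEX101 and 18 and 8 in TKTL1. A CG count above the median was shared by genes that were silent in DMSO, such as DAZL, and by HSPA2, which was not. Short motifs were also searched on both strands. CACGTG was present in 1 DAZL window and in both overlapping BRDT windows, against 7.26% of all windows. TCCCGC was present in 1 DAZL window, both BOLL windows and the HSPA2 window, against 26.9% of all windows. TATAAA was present only in the BRDT windows, against 11.5% of all windows, and TGACGT (7.98% of all windows) in none of the 12. These matches are descriptions of the letters and not of bound sites.

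**Figure D1:**
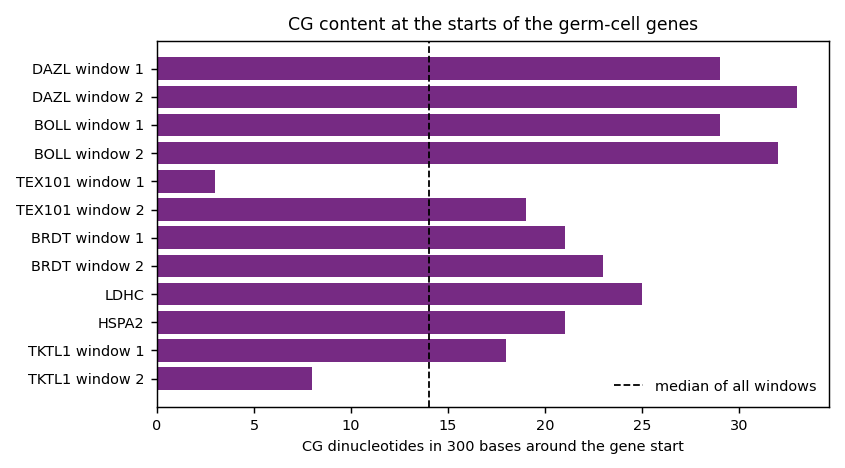
Number of CG dinucleotides (x axis) in each of the 12 RefSeq windows of 300 bases around the starts of 7 of the genes (y axis), with the median of 14 over all 35116 windows as a dashed line. The bars of DAZL and BOLL reach 29 to 33, and only the outer TEX101 window (3) and the second TKTL1 window (8) stay under the median.

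In DCB libraries, both values lay above both DMSO values for all 8 genes in YCCEL1, SNU719 and AGS, for 6 in SNU16 and for 7 in HGC27. Among all genes tested this was the case for 32.8% in YCCEL1, 32.6% in SNU719, 34.8% in AGS, 24.7% in SNU16 and 30.3% in HGC27. It held in all 5 lines for 6 of the 8 genes, all but BOLL and LDHC, against 769 genes or 2.81% of those tested. By a limit of adjusted p below 0.05 and a log2 response above 2, the genes higher with DCB made up 7.99% of all genes tested in YCCEL1, 6.38% in SNU719, 9.02% in AGS, 2.31% in SNU16 and 4.95% in HGC27. The choice of the 8 genes used this contrast, so nothing is read from these counts.

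DAZL, on chromosome 3 (16586792 to 16670306, minus strand, GRCh38, ENSG00000092345.14), encodes an RNA-binding protein that controls translation in germ cells. With DCB it had 152 and 144 normalized counts in YCCEL1, 64.3 and 52.8 in SNU719, 341 and 374 in AGS, 178 and 186 in SNU16 and 406 and 399 in HGC27. With DMSO it was listed at 0 in 9 of the 10 libraries and had 0.892 in the other, from AGS. Every DCB library was above every DMSO library, and the lines formed an order with DCB, in which HGC27 was highest, followed by AGS, SNU16, YCCEL1 and SNU719, and no neighbouring lines overlapped. In these bulk libraries more cells expressing a gene and more RNA per cell cannot be told apart. No fold is given for the 4 lines at 0 in DMSO. In AGS the difference was 8.03 ± 0.317 (SE) on the log2(value + 1) scale, which depends on the pseudocount at values this low.

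TKTL1, on chromosome X (154295795 to 154330350, plus strand, ENSG00000007350.17), encodes a relative of transketolase, an enzyme of the pentose phosphate pathway. DCB libraries had 394 and 386 normalized counts in YCCEL1, 96.7 and 109 in SNU719, 1481 and 1464 in AGS, 125 and 83.7 in SNU16 and 631 and 660 in HGC27. With DMSO it had 0.694 and 0 in YCCEL1, 0 and 0 in SNU719, 5.20 and 6.14 in AGS, 0.747 and 0 in SNU16 and 0.906 and 0 in HGC27. AGS was the highest line with either treatment, HGC27 and YCCEL1 followed with DCB, and SNU16 and SNU719 overlapped at the low end. In AGS, where both DMSO libraries held reads, the mean was 1473 ± 12.6 with DCB and 5.67 ± 0.665 with DMSO (SD, n = 2 each), a ratio of 259.5.

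HSPA2, on chromosome 14 (64535905 to 64546173, plus strand, ENSG00000126803.9), encodes an HSP70 chaperone that is abundant in spermatocytes and spermatids and is also made at lower levels in other tissues. It was the only one of the 8 genes with reads in all 10 DMSO libraries, so its response could be given as a fold in each line. The DCB libraries held 187 and 176 normalized counts in YCCEL1, 273 and 231 in SNU719, 568 and 553 in AGS, 840 and 826 in SNU16 and 196 and 216 in HGC27. The DMSO libraries held 36.5 and 29.3 in YCCEL1, 55.8 and 76.2 in SNU719, 63.4 and 77.2 in AGS, 149 and 152 in SNU16 and 23.0 and 21.2 in HGC27. SNU16 was highest with both treatments, whereas HGC27 was lowest with DMSO and lay above YCCEL1 with DCB. With DMSO the values of AGS and SNU719 overlapped, and with DCB no neighbouring lines did. The log2 response was 2.43 in YCCEL1, 1.93 in SNU719, 2.98 in AGS, 2.46 in SNU16 and 3.16 in HGC27 (SE 0.170 each), or ratios of the means of 5.51, 3.82, 7.96, 5.53 and 9.33 in the same order of lines.

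TEX101, on chromosome 19 (43401496 to 43418597, plus strand, ENSG00000131126.19), encodes a germ-cell surface glycoprotein of the LY6/uPAR family that is needed in the mouse for sperm to pass into the oviduct. With DCB it had 110 and 87.8 normalized counts in YCCEL1, 46.3 and 59.5 in SNU719, 83.8 and 98.2 in AGS, 0.736 and 3.27 in SNU16 and 2.96 and 2.90 in HGC27. With DMSO it was listed at 0 in YCCEL1, AGS and SNU16, and had 1.17 and 2.13 in SNU719 and 1.28 and 1.34 in HGC27. The 3 CIMP+ lines were high with DCB and the 2 CIMP- lines stayed at 3.27 or less. YCCEL1 and AGS overlapped with DCB, as did SNU16 and HGC27, and SNU719 lay between those pairs. The log2 response was 4.36 in SNU719 and 0.77 in HGC27 (SE 0.414 each), the 2 lines with DMSO reads in both libraries.

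TEX14, on chromosome 17 (58556678 to 58692055, minus strand, ENSG00000121101.16), encodes a protein that in the mouse keeps open the intercellular bridges between dividing germ cells. With DCB it had 28.7 and 42.6 normalized counts in YCCEL1, 19.3 and 28.2 in SNU719, 6.20 and 4.26 in AGS, 1.25 and 2.49 in SNU16 and 8.69 and 7.64 in HGC27. With DMSO it had 1.11 and 0 in YCCEL1, 1.34 and 0 in SNU719, 0.563 and 0 in AGS, 0 and 0 in SNU16 and 5.82 and 4.58 in HGC27. The EBV+ lines were the highest with DCB, and HGC27 was the highest with DMSO, and its log2 response was 0.57 ± 0.502 (SE). SEPTIN4-AS1 overlaps TEX14 on the opposite strand and held 7.63 to 25.1 normalized counts, and whether the counting used strand is not stated, so reads of these genes may not have been kept apart. SEPTIN4-AS1 had both DCB libraries above both DMSO libraries in 0 of the 5 lines. IGBP1P2 (IGBP1C) and the snoRNA gene U3, among others, overlap TEX14 on the same strand. IGBP1P2 was higher with DCB over the 5 lines (0.90, limma with line as a term, adjusted p = 0.0144), and U3 was not called (0.645). In HGC27 IGBP1P2 averaged 3.13 normalized counts with DCB and 0 with DMSO, where TEX14 averaged 8.17 and 5.20. The part of such reads in the TEX14 values was not tested.

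BRDT, on chromosome 1 (91949343 to 92014426, plus strand, ENSG00000137948.19), encodes the testis-specific member of the BET family, which binds acetylated histones and takes part in the reshaping of chromatin in spermatids. After DCB it had 3.83 and 6.09 normalized counts in YCCEL1, 9.36 and 13.5 in SNU719, 30.6 and 68.5 in AGS, 7.59 and 6.26 in SNU16 and 13.1 and 11.6 in HGC27. After DMSO it had 0 and 0 in YCCEL1, 0 and 6.12 in SNU719, 1.45 and 14.2 in AGS, 0.772 and 2.38 in SNU16 and 0 and 3.84 in HGC27. AGS held the highest value with either treatment, and its 2 libraries lay far apart. With DCB the values of HGC27 and SNU719 overlapped, and those of SNU16 and YCCEL1 were the lowest. The groups did not overlap within any line, but the higher AGS library with DMSO (14.2) was above all DCB libraries of the other 4 lines.

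BOLL, on chromosome 2 (197726879 to 197786762, minus strand, ENSG00000152430.18), is a relative of DAZL from the same family of RNA-binding proteins and acts later, in meiosis. After DCB it had 1.39 and 26.3 normalized counts in YCCEL1, 8.11 and 0.865 in SNU719, 2.08 and 4.85 in AGS, 1.52 and 0 in SNU16 and 3.64 and 2.45 in HGC27. With DMSO it was listed at 0 in 9 of the 10 libraries and had 1.52 in 1 SNU16 library. Replicates of YCCEL1 and of SNU719 with DCB disagreed strongly, and in SNU16 the treatments overlapped.

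LDHC, on chromosome 11 (18412318 to 18452063, plus strand, ENSG00000166796.12), encodes the lactate dehydrogenase subunit of the testis and sperm. With DCB it had 3.92 and 0.762 normalized counts in YCCEL1, 1.09 and 4.30 in SNU719, 1.80 and 0.385 in AGS, 1.40 and 0 in SNU16 and 1.95 and 0 in HGC27. With DMSO it was at 0 in 8 of the 10 libraries and had 2.03 and 2.51 in SNU16. No LDHC value exceeded 4.30, and SNU16 was the 1 line in which both DMSO libraries lay above both DCB libraries.

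**Figure D2:**
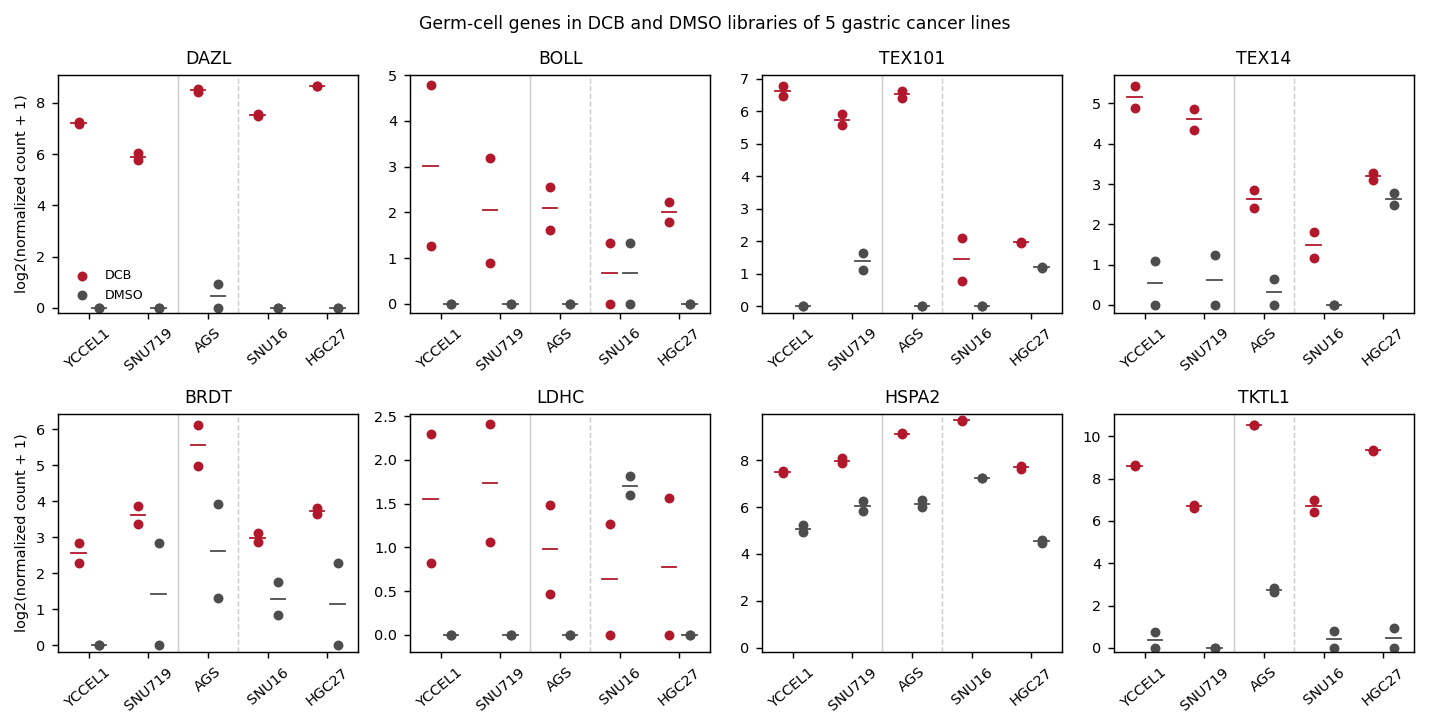
Log2(normalized count + 1) (y axis) of each of the 8 genes in the DCB (red) and DMSO (grey) libraries of the 5 lines (x axis), with points for libraries and bars for the mean of 2. The solid line parts EBV+ from EBV- lines and the dashed line CIMP+ from CIMP- lines. DAZL and TKTL1 lie far above their DMSO libraries in every line and TEX101 in the 3 CIMP+ lines, while HSPA2 has 21.2 normalized counts or more in every DMSO library.

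The untreated lines differed in 4 of the 8 genes, against 67.7% of all genes tested (limma, moderated F over the 5 DMSO groups, adjusted p below 0.05). For HSPA2 the adjusted p was 3.2e-08, with 149 and 152 normalized counts in SNU16 at the top and 23.0 and 21.2 in HGC27 at the bottom. For TKTL1 it was 9.0e-05, AGS lying above the other lines. For TEX14 it was 0.00230, with HGC27 above the rest. For TEX101 the adjusted p of 0.00974 rested on values of 1.17 to 2.13 in SNU719 and HGC27 against 0 elsewhere, and with a pseudocount of 5 it was 0.231. DAZL (adjusted p = 0.585), BOLL (0.964), BRDT (0.229) and LDHC (0.0911) were not called. DAZL and BOLL were at 0 in 9 of the 10 DMSO libraries, and LDHC was above 0 with DMSO only in SNU16 and was called with quantile normalization (0.0217).

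The size of the DCB response differed between the 5 lines for 5 of the 8 genes, against 34.2% of all genes tested (limma, moderated F over the responses). The adjusted p was 5.3e-06 for TEX101, 0.00213 for TEX14, 0.00281 for DAZL, 0.00696 for HSPA2 and 0.00741 for TKTL1. For TKTL1 it was 0.0798 with a pseudocount of 0.5, its DMSO values in 4 lines being 0 to 0.906. BRDT (adjusted p = 0.937), BOLL (0.424) and LDHC (0.120) were not called. For BOLL it was 0.0465 without the first DCB library of YCCEL1, which had 1.39 against 26.3 in the second.

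The study's design set EBV+ against EBV- lines. The mean DCB response of the EBV+ lines was larger for TEX101 and TEX14 and smaller for DAZL and HSPA2 than that of the EBV- lines, so 2 of the 8 genes were called in each direction, against 10.5% (larger) and 9.17% (smaller) of all genes tested. TEX14 had 19.3 to 42.6 normalized counts in the 4 DCB libraries of the EBV+ lines and 1.25 to 8.69 in the 6 of the EBV- lines, without overlap (limma, adjusted p = 0.000527). DAZL had 52.8 to 152 in the EBV+ lines and 178 to 406 in the EBV- lines with DCB, also without overlap (adjusted p = 0.00203). TEX101 had 46.3 to 110 in the EBV+ lines and 0.736 to 98.2 in the EBV- lines (adjusted p = 0.000255), and here AGS lay among the EBV+ lines. The log2 response of HSPA2 averaged 2.18 in EBV+ lines and 2.87 in EBV- lines, a difference of -0.69 ± 0.155 (SE, adjusted p = 0.00620). By line it was close in YCCEL1 (EBV+, 2.43) and SNU16 (EBV-, 2.46). SNU719 was lowest at 1.93, and AGS (2.98) and HGC27 (3.16) were highest. Under a fold limit of 2 DAZL and HSPA2 were no longer called. TKTL1 (adjusted p = 0.769), BRDT (0.987), BOLL (0.406) and LDHC (0.111) were not called, and with a pseudocount of 5 TKTL1 was called as smaller in EBV+ lines (adjusted p = 0.00655). The p-values use the spread between libraries and not that between lines, of which there were 2 and 3.

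Set by CIMP status, the response of TEX101 and TEX14 was larger and that of DAZL smaller in CIMP+ lines than in CIMP- lines, 3 of the 8 genes, against 12.8% (larger) and 8.94% (smaller) of all genes tested. TEX101 with DCB had 46.3 to 110 normalized counts in the 6 CIMP+ libraries and 0.736 to 3.27 in the 4 CIMP- libraries (limma, adjusted p = 9.5e-07). These groups did not overlap. TEX14 had 4.26 to 42.6 in CIMP+ and 1.25 to 8.69 in CIMP- libraries with DCB (adjusted p = 0.000974), and here the values of AGS (CIMP+) lay below those of HGC27 (CIMP-). DAZL had 52.8 to 374 in CIMP+ and 178 to 406 in CIMP- libraries with DCB, with overlap (adjusted p = 0.0193), and it was no longer called with a pseudocount of 0.5 (0.0520), with the replicate number as a block (0.0658) or under a fold limit of 2. HSPA2 responses averaged 2.45 in CIMP+ and 2.81 in CIMP- lines, a difference of -0.36 ± 0.155 (SE, adjusted p = 0.118). TKTL1 (adjusted p = 0.992), BRDT (0.796), BOLL (0.303) and LDHC (0.0730) were not called. For LDHC the adjusted p fell below 0.05 when single DCB libraries of YCCEL1, SNU719, SNU16 or HGC27 were left out (0.0292 to 0.0441), for BOLL without the first YCCEL1 DCB library (0.0494) and for HSPA2 without the first SNU719 DMSO library (0.0452).

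The somatic relatives of TKTL1, HSPA2, BRDT and LDHC all had reads in DMSO cells, from group means of 28.6 normalized counts (HSPA1A in HGC27) upwards. Of 8 relatives tested, 1 rose and 4 fell with DCB over the 5 lines, against 17.9% higher and 6.94% lower of all genes tested (limma, line as a term, adjusted p below 0.05). Of 15 reference genes expressed in every cell 3 rose and 6 fell in the same fit, among them EEF1A1 (-0.67, adjusted p = 1.1e-07) and RPLP0 (-0.54, adjusted p = 7.9e-08), so falls of this size were not particular to the relatives. TKT, the transketolase of all cells, fell by 0.73 on the log2 scale (SE 0.0637, adjusted p = 3.5e-07), with group means of 1266 to 3391 with DCB and 2324 to 5618 with DMSO, and no line had both DCB libraries above both DMSO libraries. BRD2 and BRD3, BET relatives of BRDT, fell by 0.36 (SE 0.0586, adjusted p = 0.000238) and 0.37 (SE 0.0757, adjusted p = 0.00172) on that scale. LDHB fell by 0.19 (SE 0.0509, adjusted p = 0.00974), but not with quantile normalization (adjusted p = 0.560). LDHA was at 0.26 over the lines (adjusted p = 0.190), with 1.22 in HGC27 (adjusted p = 2.2e-11), 0.62 in AGS (3.2e-08) and -0.38 in YCCEL1 (4.6e-06). HSPA1A, the stress-induced HSP70, rose by 1.71 over the 5 lines (SE 0.271, adjusted p = 0.000207), with no overlap in 4 of them, and was at -0.21 in SNU16. HSPA1A and HSPA1B (0.24, adjusted p = 0.0912, or 0.00912 with quantile normalization) are nearly identical copies that share reads, so their values are uncertain. HSPA8, the constitutive HSP70, was at -0.03 over the lines (adjusted p = 0.880), with 0.74 in HGC27 (adjusted p = 9.0e-09) and -0.62 in SNU16 (4.8e-07). In HGC27 alone LDHA, HSPA1A, HSPA1B and HSPA8 were higher with DCB (adjusted p below 0.05). In the same line TKT (-1.02, adjusted p = 5.6e-07), BRD2 (-0.42, 0.000193) and BRD3 (-0.53, 0.0137) were lower. The share of all genes within this limit in HGC27 is not given here, so nothing is read from these calls.

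**Figure D3:**
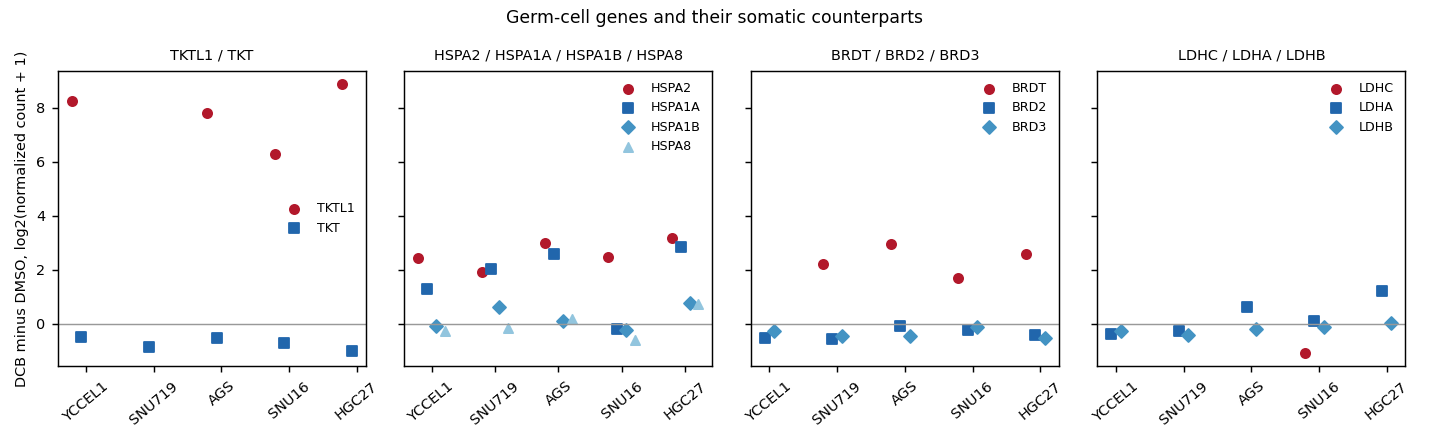
Difference of DCB minus DMSO in log2(normalized count + 1) (y axis) in each line (x axis) for TKTL1, HSPA2, BRDT and LDHC (red circles) and for their somatic relatives (blue symbols); a germ-cell gene has no point in a line where both DMSO libraries were at 0. TKTL1 lies at 6.29 to 8.87 where it could be plotted, while TKT lies below 0 in every line, and HSPA1A lies above 0 in every line but SNU16.

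Other germ-cell genes were counted in lists by role, and so was the LY6/uPAR family of TEX101, which has members of other tissues. The filter used the libraries of both treatments, so a gene at 0 with DMSO passed it only through its DCB values and could not fall. Listed genes that stayed near 0 with both treatments dropped out. This holds for all genes tested too, and the shares of these lists and the p-values of their named genes are descriptions. With DCB over the 5 lines, 13 of 18 tested genes of spermatogonia and primordial germ cells rose (72.2%) and 0 fell. Over all genes tested 17.9% rose and 6.94% fell. The median log2 response of this list was 1.56, against 0.15 over all genes tested. MEIOSIN, which starts meiosis in the mouse, had group means of 5.04 to 17.6 normalized counts with DCB and at most 0.481 with DMSO (adjusted p = 3.7e-08). SOHLH1, a transcription factor of spermatogonia, had 7.16 to 17.9 with DCB and was at 0 with DMSO except in YCCEL1, at 2.11 (adjusted p = 2.3e-07). ID4, which marks spermatogonial stem cells in the mouse, had 2.15 to 10.2 with DCB and was listed at 0 with DMSO in all lines. It could not fall, so no p-value is given. SALL4, a transcription factor of stem and germ cells, had 20.1 to 370 with DCB and 0 to 346 with DMSO (adjusted p = 0.000742), SNU719 being high with both.

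Of 13 germline RNA regulators tested, the functional class of DAZL and BOLL, 7 rose and 0 fell, with a median of 0.98. The share that rose was 53.8%, against 17.9% of all genes tested. RBM46, an RNA-binding protein of germ cells, had 2.32 to 28.6 normalized counts with DCB and was listed at 0 in every DMSO library. It could not fall, so no p-value is given. NANOS1, a translational repressor, rose by 2.31 (SE 0.355, adjusted p = 0.000158), and DND1, also of this list, by 1.56 (SE 0.336, adjusted p = 0.00240). MEIOC, which keeps germ cells in meiosis in the mouse, had 2.35 to 30.0 with DCB and 0 to 6.28 with DMSO (adjusted p = 0.00408).

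Among the other TEX genes, which share only a name for testis expression, 4 of 11 tested of 27 listed rose and 0 fell. The share that rose was 36.4%, against 17.9% of all genes tested, and the median was 0.48. TEX11, an X-linked meiosis gene, rose by 3.16 (SE 0.379, adjusted p = 1.4e-05) with both DCB libraries above both DMSO libraries in 5 of 5 lines. TEX15, required for silencing of transposons in the mouse male germ line, was at 0 with DMSO in 4 lines but had 694 with DCB and 507 with DMSO in HGC27 (adjusted p = 0.000421). TEX37 had 7.20 in YCCEL1, 11.6 in SNU719 and 25.98 in AGS with DCB. It was listed at 0 with both treatments in SNU16 and HGC27 and with DMSO in all lines. It could not fall, so no p-value is given. TEX19 rose by 1.30 (SE 0.366, adjusted p = 0.0139).

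Among the LY6/uPAR proteins, the family of TEX101, 5 of 7 tested rose and 0 fell, with a median of 1.87. The share that rose was 71.4%, against 17.9% of all genes tested. LYPD3, a surface protein of squamous epithelia, rose by 1.98 (SE 0.263, adjusted p = 3.8e-05) and PINLYP by 1.95 (SE 0.373, adjusted p = 0.00100). LY6K, a testis member needed for sperm migration in the mouse, had 10.96 to 160 normalized counts with DCB and 0 to 0.521 with DMSO in 4 lines, whereas SNU16 had 87.1 with DCB and 85.9 with DMSO (adjusted p = 0.000144). CD177, a neutrophil surface protein, had 0 to 14.4 with DCB and 0 to 2.30 with DMSO (adjusted p = 0.000997).

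Genes of later stages were counted in the same way, and the lists were not tested against each other. Of the testis isoenzymes and chaperones, the class of LDHC and HSPA2, 2 of 7 tested of 15 listed rose, with a median of 0.74. The share that rose was 28.6%, against 17.9% of all genes tested. CLGN, an endoplasmic reticulum chaperone of the testis, had 3.06 to 68.2 normalized counts with DCB and 0 to 47.1 with DMSO (adjusted p = 0.00543). LDHAL6A, a lactate dehydrogenase relative beside LDHC, had 0.367 to 3.43 with DCB and 0 to 1.35 with DMSO (adjusted p = 0.0182). Of the spermatid genes, 11 of 32 listed passed the filter and 1 of these rose (9.09%), below the 17.9% of all genes tested. Their median was 0.10. The gene that rose was CATSPER1, a subunit of the sperm calcium channel (adjusted p = 0.00313). The medians include genes at 0 in DMSO and depend on the pseudocount there.

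**Figure D4:**
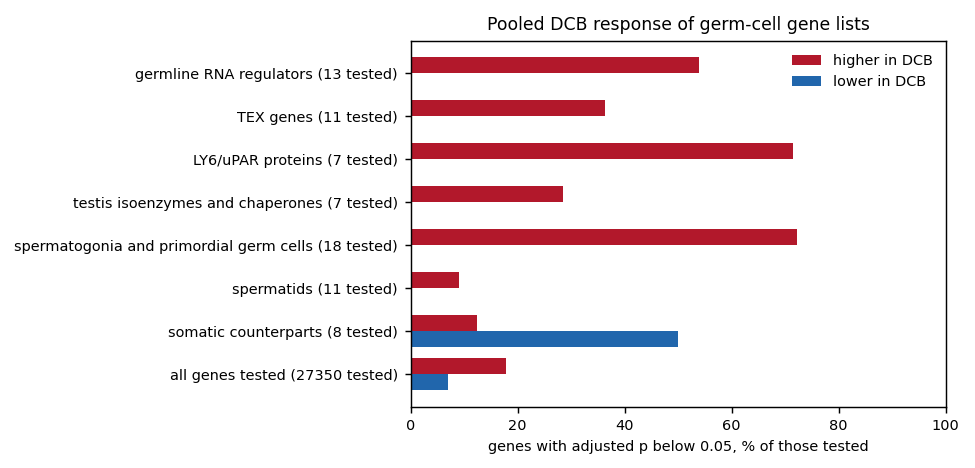
Share of tested genes (x axis, %) with an adjusted p below 0.05 that were higher (red) or lower (blue) with DCB over the 5 lines. Shown are 6 gene lists, the somatic relatives and all 27350 genes tested (y axis). The LY6/uPAR list is a protein family with members of other tissues and not a list of germ-cell genes. The bars reach 72.2% for spermatogonia and primordial germ cells and 9.09% for spermatids, against 17.9% higher for all genes.

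Markers of other cells moved with DCB too. Over all genes tested 17.9% rose and 6.94% fell. Of the leukocyte markers 4 of 6 rose, with summed levels per library of 50.4 to 729 with DCB and 7.73 to 154 with DMSO. With DCB CD68 alone averaged 343 in YCCEL1 and 646 in SNU719, while CD3E averaged at most 1.89. PTPRC (limma, line as a term, adjusted p = 0.0505) and CD79A (0.0908) were not called. Of the fibroblast markers 5 of 6 rose, with sums of 85.3 to 52648 with DCB and 7.33 to 48174 with DMSO. Of the markers of testis somatic cells 2 of 5 tested rose, with sums of 30.6 to 226 with DCB and 10.5 to 170 with DMSO, and LHCGR, the luteinizing hormone receptor of Leydig cells, was listed at 0 in all 20 libraries. Over the 5 lines 0 of the 6 epithelial markers rose or fell, with sums of 492 to 107295 with DCB and 119 to 99172 with DMSO, but in HGC27 alone KRT18 (2.65, adjusted p = 6.9e-12), KRT8 (2.11, 1.1e-06), CDH1 (2.00, 3.7e-05) and KRT19 (1.24, 0.0274) were higher with DCB, as were KRT18 (5.55e-05) and KRT8 (0.00425) in AGS. The part of these markers in the responses of the germ-cell genes was not tested.

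The nearest tested genes within 100 kb of the 8 genes were also read. Of 14 such neighbours 8 rose and 0 fell, against 17.9% higher and 6.94% lower of all genes tested. LYPD3 (42190 bases away) and CD177 (38324 bases away) flank TEX101 and are counted above in its family. SEPTIN4, 12310 bases from TEX14, had 73.2 normalized counts with DCB and 0.861 with DMSO in AGS, and 33.9 with DCB and 33.1 with DMSO in HGC27 (adjusted p over the lines 0.00323). FLNA, which encodes filamin A and lies 18174 bases from TKTL1, rose by 0.80 (SE 0.126, adjusted p = 0.000197) with no overlap in 5 of 5 lines. RFTN1 beside DAZL had 0 to 13.9 with DCB and 0 to 1.05 with DMSO (adjusted p = 0.00968). PLCL1 beside BOLL (adjusted p = 0.0346), EPHX4 beside BRDT (0.0335) and LDHAL6A beside LDHC (0.0182) also rose, with group means of at most 5.01 normalized counts with DMSO. RAD51C lies 518 bases from TEX14 and was not called (adjusted p = 0.0983), nor were MARS2 beside BOLL (0.180), TGFBR3 beside BRDT (0.905), LDHA beside LDHC (0.190), or ZBTB1 (0.115) and PPP1R36 (0.716) on the sides of HSPA2.

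The genes whose values over the 20 libraries were most like those of DAZL were PNMA6E (Pearson r = 0.988), DMRTB1 (0.979), SYCP3 (0.979), the processed pseudogene AC073349.2 (0.978) and TSPYL6 (0.978), on the log2 scale. SYCP3, a component of the synaptonemal complex, had group means of 70.7 to 236 normalized counts with DCB and 0.366 to 2.25 with DMSO. The gene most like TKTL1 was DAZL itself (r = 0.972). The gene most like TEX101 was TRIM43 (r = 0.971), which had 558 in YCCEL1, 110 in SNU719 and 357 in AGS with DCB, 0.492 in SNU16 and 0.492 in HGC27 with DCB, and was at 0 with DMSO. RHOV was most like HSPA2 (r = 0.934), GGT5 most like TEX14 (0.902), GBP5 most like BRDT (0.877), TFPI2 most like BOLL (0.874) and AC079594.1 most like LDHC (0.781). These values describe 20 libraries that fall into 10 treated and 10 untreated ones, so the treatment is shared by the points of all these pairs.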

How the data were processed

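RNA of YCCEL1, SNU719, AGS, SNU16 and HGC27 cells, each treated with DCB or DMSO for 72 h, was analysed as 2 libraries per line and treatment. The table deposited by the authors holds a signal per gene, namely estimated counts that were normalized before deposit and are not whole numbers. Their exact normalization is not given in the sources used here. According to the study's methods the libraries were of the 3′ QuantSeq kind, with alignment by STAR to a GRCh38 genome joined with EBV, whereas the submitters' processing notes and protocols name NEBNext Ultra libraries of poly(A) RNA and the GRCh37 build, with DESeq2 1.14.1, featureCounts 1.5.1 and STAR 2.5.2b. The positions deposited with the genes match GRCh38: start and end were identical to GENCODE for 92.6% of 60064 genes present in both. Whether counting used strand is not stated.

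Log2(value + 1) was fitted by limma 3.58.1 (lmFit, then eBayes with trend; R 4.3.3 with the package data.table, version 1.17.8) for the 27350 genes whose values summed to more than 10 over the 20 libraries. Data were read with pandas 2.3.3 and figures drawn with matplotlib 3.10.9 in Python 3.11.15. Differences between lines, EBV status and CIMP status were contrasts among the 10 combinations of line and treatment, and responses over the 5 lines had the line as a term. That second fit had no term for differences in response between lines, so these add to its spread. P-values were adjusted over all genes tested by the method of Benjamini and Hochberg, with a threshold of 0.05. On this scale the change of a gene with low values is understated. No fold is given against a group listed at 0. Standard errors are those of limma, and SDs are over the 2 libraries of a group. The methods were tested on simulated data before use, with changes planted only in genes whose mean level lay well above 0 in every line. Responses that start from 0 with DMSO, as in DAZL, were thus not covered by that test.

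The 8 genes, the gene lists and the tests were chosen with earlier results of these data known. The named genes were the 8 genes, their somatic relatives and up to 4 genes with the smallest adjusted p per list. The nearest tested gene on each side within 100 kb was named too, as were the tested genes overlapping TEX14. The genes of most similar pattern were also named, 5 for DAZL and 1 for each other gene. Replicate numbers did not pair the libraries, with correlations of deviations of -0.019 to 0.0148 within lines. Alternatives to the pseudocount, the filter, the scaling, the trend, the block, the fold limit and the libraries in the fit were tried. No value column was left out, and the genes of the EBV genome were not analysed here.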

Additional observations from a re-analysis of the deposited data

Results flagged for a closer look

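The response of several of the 8 genes to DCB differed between lines or kinds of line by a test of the difference itself (limma, adjusted over 27350 genes). Between EBV+ and EBV- lines the adjusted p was 0.000255 for TEX101 and 0.000527 for TEX14, both with the larger mean response in EBV+ lines. It was 0.00203 for DAZL and 0.00620 for HSPA2, both with the smaller mean response in EBV+ lines and both lost under a fold limit of 2. For TEX101 the EBV- line AGS had 83.8 and 98.2 normalized counts with DCB, among the 46.3 to 110 of the EBV+ lines. Between CIMP+ and CIMP- lines it was 9.5e-07 for TEX101 and 0.000974 for TEX14, both larger in CIMP+ lines, and 0.0193 for DAZL, smaller in CIMP+ lines, a call that was lost with a pseudocount of 0.5 (0.0520), with the replicate number as a block (0.0658) and under a fold limit of 2. Between the 5 lines it was 5.3e-06 for TEX101, 0.00213 for TEX14, 0.00281 for DAZL, 0.00696 for HSPA2 and 0.00741 for TKTL1. The lines of each status are few, and whether the status or another difference between these lines goes with the response cannot be told apart. With 2 libraries per group, no library was tested for standing apart from its group.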

How the results depend on the processing

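The counts of the 8 genes called kept within 1.5 times of 4 for untreated levels, 5 for responses between lines, 4 for EBV status and 3 for CIMP status under all alternatives but 1, a fold limit of 2 on the log2 difference, which left 2 genes for EBV status (TEX101 and TEX14) and called 940 genes of all for EBV and 1153 for CIMP status. With each library left out in turn the counts of the 8 genes were 4 to 4 for untreated levels, 5 to 6 for responses between lines, 4 to 4 for EBV status and 3 to 4 for CIMP status. The numbers of genes called higher in single lines also moved. With a pseudocount of 5 they were 805 in YCCEL1, 622 in SNU719, 1051 in AGS, 217 in SNU16 and 472 in HGC27, against 2184, 1745, 2466, 633 and 1355 in the same order. With each line fitted alone they were 1245, 1046, 1555, 191 and 669. With values summing to more than 100 HGC27 had 867. With quantile normalization YCCEL1 had 1384, SNU719 1111, SNU16 402 and HGC27 891, and over the 5 lines 3125 genes were higher and 2886 lower, against 4901 and 1897. That scaling moved the median response of all genes to -0.05, against 0.15, and under it HSPA2 differed by CIMP status (-0.76, adjusted p = 0.00208) and LDHC between untreated lines (adjusted p = 0.0217). In an alternative chosen after seeing the data, the somatic relatives were rescaled too, and under quantile normalization LDHB was no longer called (-0.06, adjusted p = 0.560) and HSPA1B was (0.35, adjusted p = 0.00912), the other 6 relatives keeping their calls. The cause of these changes was not tested.

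The replicate number as a block gave 5 of the 8 genes for responses between lines, 4 for EBV status and 2 for CIMP status, where DAZL was lost (adjusted p = 0.0658), with 7433, 4644 and 5176 of all genes called, and over the 5 lines 3425 genes higher and 1275 lower. The numbers are shared only as numbers. No block fit was made for untreated levels, because the blocks hold the spread of the DMSO libraries. The count of testis isoenzymes and chaperones that rose was 1 under the block, quantile normalization or the stricter filter and 4 without the first HGC27 DMSO library, and that of spermatids was 0 under the stricter filter and 2 without any of 4 single libraries. Of 1700 alternative values for single genes and lists, 1624 kept their side of the threshold or moved within the set limits, and no called difference changed sign. Differences that were not called did change sign, as for TKTL1 by EBV status (-0.19, and 0.16 with a pseudocount of 0.5) and by CIMP status (-0.01, and 0.30 with a pseudocount of 5) and for BRDT by EBV status (-0.03, and 0.33 with a pseudocount of 0.5). Values near 0 with DMSO limit the size of the responses of DAZL, TKTL1, BOLL, LDHC and TEX101.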
